A study of Homo sapiens with 2 samples.

Results

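The RNAs described here are 6 short noncoding RNAs that work outside the spliceosome: RMRP, RPPH1, RN7SK and the vault RNAs VTRNA1-1, VTRNA1-2 and VTRNA1-3. They were chosen by name, and an interval of the deposited peak list was assigned to an RNA when its midpoint lay in the RefSeq span of the gene. Of the 1406 distinct intervals in the list, 4 (0.284%) lay in these genes, 1 each in RMRP, RPPH1, RN7SK and VTRNA1-2. None lay in VTRNA1-1 or VTRNA1-3.

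RNA contacts of SF3B1, a core protein of the U2 small nuclear ribonucleoprotein, were mapped by HITS-CLIP: ultraviolet light fixes RNA to bound proteins, an antibody pulls the protein down, and the RNA that comes with it is read as short tags. Biological duplicates (2 libraries) came from MDA-231-LM2 cells, which were selected from the MDA-MB-231 breast cancer line for spread to the lung, with an antibody against endogenous SF3B1. SNRBP2 stands in place of SF3B1 in the labels' extract protocol, and the target was taken as SF3B1 from the title, design text and antibody label. The study had 1 group, no control or input sample and 1 peak list pooled over both libraries, so no value below has a replicate error, the depth of each library was unknown, and contact with SF3B1 cannot be told apart from background of abundant RNAs.

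These RNAs are transcribed by RNA polymerase III and act as the RNA cores of particles other than the spliceosome. RMRP is the RNA of RNase MRP, a nucleolar enzyme that cuts precursor ribosomal RNA, and mutations in its gene cause cartilage-hair hypoplasia. RPPH1 is the catalytic RNA of RNase P, which removes the 5′ leader of precursor transfer RNAs; RNase P and RNase MRP share most of their protein subunits. RN7SK, the 7SK RNA, holds the elongation kinase P-TEFb inactive together with HEXIM and LARP7 proteins. Vault RNAs are found partly in the vault, a large cytoplasmic ribonucleoprotein particle, and VTRNA1-1 has been linked to autophagy.

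The 4 intervals were among the taller ones of the list. The height of an interval (PH) is the authors' own value, given as pooled tags at the summit and not normalized; as a count at 1 position it does not grow with the length of the RNA. All 1406 intervals had a median height of 7 tags, quartiles at 6 and 11, and a maximum of 248. The 4 intervals together held 471 of 15680 summed tags (3.0%), and 30.3% of the 1554 summed at the 53 intervals in short noncoding RNA genes of at most 500 nt. The 4 members with an interval of 6 stand beside a background of 1.39% of 3800 short noncoding RNA genes (53 genes), or 3.52% of 1422 when miRNA and tRNA genes are left out. The members were chosen with the list known, so nothing is read from that difference.

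RMRP held the tallest of them, with 203 tags (95% Poisson interval 176 to 233) at chromosome 9, 35657804 to 35657860, minus strand (hg38, as for all positions). Only 2 intervals of the list were taller. RN7SK followed with 142 tags (120 to 167) at chromosome 6, 52995865 to 52995912, plus strand, where 5 intervals were taller. VTRNA1-2 had 92 tags (74.2 to 113) at chromosome 5, 140718959 to 140719002, plus strand, and 13 intervals were taller. RPPH1 had 34 tags (23.5 to 47.5) at chromosome 14, 20343200 to 20343242, minus strand, and 45 intervals were taller. The order by height was thus RMRP, RN7SK, VTRNA1-2 and RPPH1, with no overlap between the counting intervals of neighbours in that order. These counting intervals cover counting error only, since each height is the top of a called peak and the spread between the 2 cultures is unknown. RMRP stood 5.97-fold above RPPH1, and the heights were 29-fold (RMRP) to 4.86-fold (RPPH1) the list's median.

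**Figure D1:**
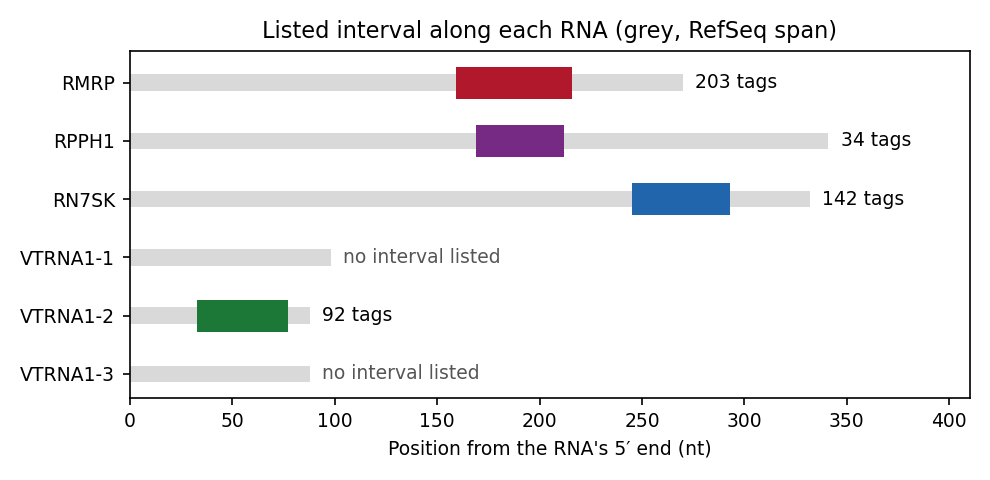
Position of each listed interval (coloured) along its RNA (grey, RefSeq span), in nt from the 5′ end, with its height in pooled tags. The 4 intervals cover 12.6% to 50% of their RNAs, and VTRNA1-1 and VTRNA1-3 have no interval.

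Each interval covered a limited stretch of its RNA; the file's name points to bounds set relative to peak height, and how they were set is not given in the sources used here. Positions are counted from the 5′ end, read along the strand of the interval. In RMRP, 270 nt long, the interval took up positions 160 to 216, 57 nt or 21.1% of the RNA. In RPPH1, 341 nt long, it took up positions 170 to 212, 43 nt or 12.6%. In RN7SK, 332 nt long, it took up positions 246 to 293, 48 nt or 14.5%, and ended 39 nt before the 3′ end. The 88 nt VTRNA1-2 was covered over positions 34 to 77, 44 nt or 50%, ending 11 nt before the 3′ end. The interval of RPPH1 thus fell, by number, inside the positions of the interval in RMRP, but these positions are counted in each RNA on its own and are not an alignment of both RNAs.

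All 4 midpoints lay beyond the middle of the RNA, at 55.9% of the length in RPPH1, 62.5% in VTRNA1-2, 69.4% in RMRP and 81.0% in RN7SK. The widths ran from 43 to 57 nt while the RNAs ran from 88 to 341 nt, and the median width of all intervals was 43 nt. RMRP had the widest of the 4, and 5.48% of all intervals were wider. No second interval lay elsewhere in these RNAs. The nearest other interval was 59924 nt away from that of RMRP, 195799 nt from that of VTRNA1-2, 465183 nt from that of RN7SK and 858829 nt from that of RPPH1. CCDC107, PARP2 and GSTA4, protein-coding neighbours of RMRP, RPPH1 and RN7SK, held 0 intervals. ZMAT2, looked up as a further neighbour of the 6 RNAs, held 0 as well. Of all 20052 protein-coding genes only 5.47% held an interval, so nothing is read from these counts.

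The heights looked different when set against the height that the list expects for each gene (PH0), a value of the authors whose calculation is not given in the sources used here. RMRP had the highest expected height of the list, 81.10 tags against an observed 203, a ratio PH/PH0 of 2.50 (95% Poisson interval of the observed height over PH0, 2.17 to 2.87). VTRNA1-2 had an expected height of 45.37 and a ratio of 2.03 (1.63 to 2.49), the lowest ratio of all 1406 intervals. The expected height of RN7SK was 23.94 and its ratio 5.93 (5.00 to 6.99). RPPH1 had the lowest expected height of the 4, 5.25, and a ratio of 6.48 (4.48 to 9.05). By ratio the order was therefore RPPH1, RN7SK, RMRP and VTRNA1-2: the intervals of RPPH1 and RN7SK overlapped each other, as did those of RMRP and VTRNA1-2, while the upper pair lay above the lower pair. With 1 tag added to PH0, RN7SK (5.69) stood above RPPH1 (5.44), so the order of these RNAs is not settled. Without the added tag, the order by ratio was also the order by length. The lengths were 341 nt (RPPH1), 332 nt (RN7SK), 270 nt (RMRP) and 88 nt (VTRNA1-2). Whether the ratio depends on length, in these RNAs or over the list, was not tested.

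**Figure D2:**
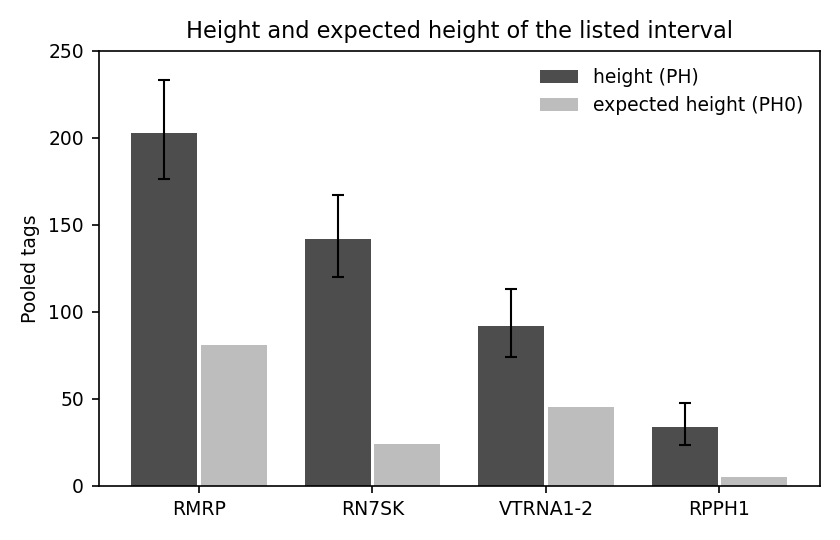
Height (dark bars, with 95% Poisson intervals for counting error) and expected height (light bars) in pooled tags for the 4 RNAs with an interval. RMRP has the greatest height and the greatest expected height, and RPPH1 the lowest of both.

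Across the 4 RNAs the expected height ranged over 15.4-fold, the observed height over 5.97-fold and the ratio over 3.19-fold. The 4 ratios ranked 1 (VTRNA1-2), 4 (RMRP), 14 (RN7SK) and 17 (RPPH1) from the lowest of the list. The median ratio of the list was 167, with quartiles of 80 and 400, and the median expected height was 0.04 tags. An expected height of 0, which may be a rounded value, stood at 67 intervals, and these were ranked above all others. By expected height the 4 ranked 1 (RMRP), 5 (VTRNA1-2), 10 (RN7SK) and 19 (RPPH1), so that all lay among the 19 intervals of at least 5 expected tags. The list holds significant peaks only. Which heights could have been listed at such expected heights was not tested.

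The p-values of the authors' deposited list ran in the order of the ratios, not of the heights. They were 2.26e-10 for RPPH1, 6.14e-10 for RN7SK and 3.81e-09 for RMRP in the authors' deposited list. VTRNA1-2 had 3.00e-04 in the authors' deposited list, where 889 of the 1406 intervals had a lower value. RMRP, the tallest of the 4, thus had a higher p-value than RPPH1, the lowest. The lowest value of that list, 1.00e-100, was given to 264 intervals, and none of these lay in the 6 RNAs.

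**Figure D3:**
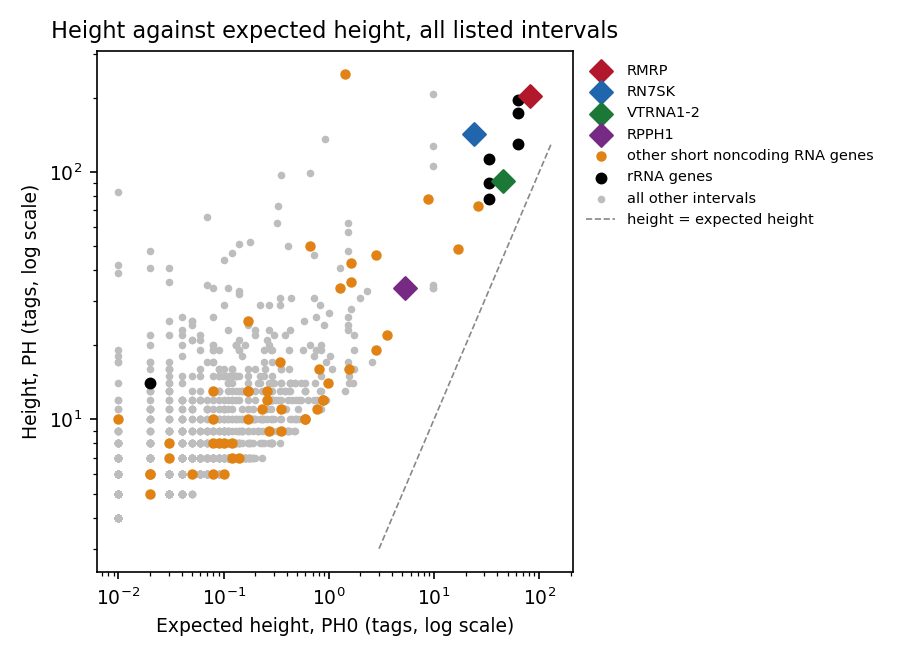
Height against expected height in pooled tags, both on log scales, for every interval with an expected height above 0. The 4 RNAs (diamonds) lie at the right, where expected heights are greatest, and RMRP and VTRNA1-2 lie close to rRNA intervals (black).

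The intervals most like that of RMRP in height and ratio were those of the mitochondrial rRNAs. By distance in log2 height and log2 ratio over all intervals with an expected height above 0, the nearest 5 were 3 in RNR2, the mitochondrial 16S rRNA, and 2 in RNR1, the 12S rRNA. The closest, in RNR2, had 173 tags, an expected height of 62.41 and a ratio of 2.77, at a distance of 0.27. The farthest of the 5, in RNR1, had 90 tags and a ratio of 2.72, at a distance of 1.18. Among the 53 intervals in short noncoding RNA genes, RMRP ranked 2, RN7SK 3, VTRNA1-2 4 and RPPH1 12 by height.

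Few short RNA intervals allow the ratio to be set side by side on the same footing. Of the 53, only 8 were listed under the gene number of the short RNA itself, while 45 were listed only under another gene, such as a host gene, whose expected height then applies. The 8 were the 4 described here and those in RNU12, RNU11, RNU6ATAC and SNORD3A. RNU11, RNU12 and RNU6ATAC are RNAs of the minor spliceosome, and SNORD3A is the U3 small nucleolar RNA, which acts in ribosomal RNA processing. The heights of the 4 RNAs described here were 34 to 203 tags and their ratios 2.03 to 6.48; the heights of the other 4 were 46 to 78 tags and their ratios 2.76 to 16.3. Both ranges overlapped.

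Of the vault RNAs, VTRNA1-2 alone had an interval. VTRNA1-2 lies 7552 nt beyond VTRNA1-1 and 7145 nt before VTRNA1-3 on chromosome 5. VTRNA1-1 spans 140711276 to 140711373 and VTRNA1-3 spans 140726159 to 140726246. VTRNA2-1, a further vault RNA gene on the same chromosome, also held 0 intervals, as did the 2 vault RNA pseudogenes. These genes are related in sequence, and how tags that match several of them were treated is not given in the sources used here. A word in the file's name, unique, may mean tags that map to 1 place or tags with duplicates removed. An absent interval does not show an absence of tags.

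RN7SK has many copies in the genome, and some of them also held intervals. Of 293 RN7SK pseudogenes in RefSeq, 6 (2.05%) held 8 intervals, beside 0.614% of the 6185 pseudogenes of at most 500 nt. RN7SK had 142 tags, against 21 tags at the tallest copy interval, in RN7SKP180, which lies within the listed gene SLC39A11, a fold of 6.76. The next copies were RN7SKP9, listed under UBAC2, with 12 tags, and RN7SKP173, listed under ACTR5, with 9 tags. A further interval in RN7SKP180 had 7 tags and a further one in RN7SKP9 had 6, while RN7SKP236 had 5 and RN7SKP118 and RN7SKP137 had 4 each. RN7SK alone thus had 2.09-fold the 68 tags of all 8 copy intervals together.

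**Figure D4:**
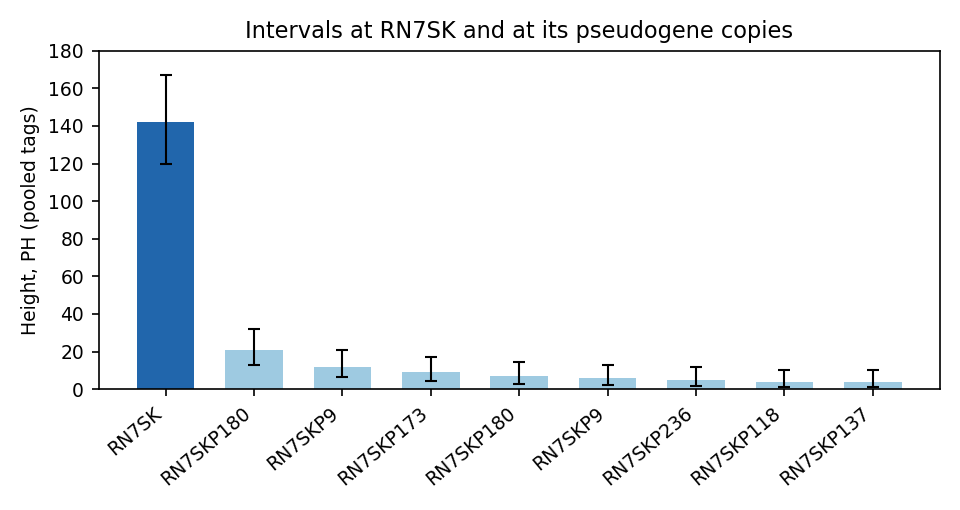
Height in pooled tags of the interval in RN7SK and of the 8 intervals in its pseudogene copies, with 95% Poisson intervals for counting error. RN7SK, at 142 tags, lies above every copy, the tallest of which has 21 tags.

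Against the expected height, the order of RN7SK and its copies was turned. RN7SK had a ratio of 5.93, whereas the 5 copy intervals with an expected height above 0 had ratios from 225 upward. The other 3 had an expected height of 0, which may be a rounded value. Of the 5, RN7SKP173 had an expected height of 0.04 and the others 0.01, the lowest listed value above 0, so these ratios are coarse. The expected heights of the copies are those of the genes they were listed under, not of RN7SK, so the ratios are not on an equal footing. The interval in RN7SKP236 was listed under CRYAA, LOC102723553, LOC102724652 and SMIM11, and whether these genes span it was not tested. In RN7SKP118, whose span of 326 nt is the closest of these copies to the 332 nt of RN7SK, the interval of 4 tags lay at positions 247 to 288. The interval of RN7SK lay at positions 246 to 293. The intervals in the other copies, of 239 to 299 nt, lay lower, from 59 to 92 in RN7SKP236 up to 197 to 238 in RN7SKP137. Positions are counted along the strand of each interval, as the strand of the copies is not given. With no sequence at hand, these positions could not be aligned. Such copies resemble RN7SK in sequence, so the assignment of tags to either is uncertain.

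A list of other short RNA genes gave 1 with an interval of 54 (1.85%). Beside it stand 1.39% of all short noncoding RNA genes, or 3.52% when miRNA and tRNA genes are left out. The 1 gene was an RNA5S gene, of an rRNA class that both backgrounds leave out, so the shares are not on an equal footing. The list leaves out U6, U6atac and tRNA genes, and RNU6ATAC, also made by RNA polymerase III, held an interval of 49 tags. The 3 RN7SL genes of the signal recognition particle RNA, the 4 Y RNA genes, BCYRN1, a neuronal dendritic RNA, and the 28 SNAR genes held 0 intervals. TERC, the telomerase RNA, which is made by RNA polymerase II, held 0 as well. Of the 17 RNA5S genes, RNA5S9 held 1 interval by midpoint, of 14 tags. The row kept for that interval was listed under RNA5S1, so the copy it belongs to is uncertain. RN7SL has 684 and the Y RNAs have 75 annotated pseudogenes, all without an interval. RMRP and RPPH1 have few copies: the 1 annotated RMRP pseudogene and the 2 of RPPH1 held 0 intervals. Whether tags shared between copies were kept or lost in these families was not tested.

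Of 25 genes of proteins that work with these RNAs, 2 (8%) held an interval, beside 5.47% of the 20052 protein-coding genes. None of the 11 protein genes of RNase P and RNase MRP, such as POP1 and RPP30, held one, and none of the 7 genes of the 7SK particle, among them LARP7, MEPCE and HEXIM1. Of the 3 vault protein genes, PARP4, the vault poly(ADP-ribose) polymerase, held 1 interval of 7 tags at chromosome 13, 24435452 to 24435494, minus strand, with a ratio of 175. Of the 4 other factors, SRSF2, a splicing factor of the SR family that also binds VTRNA1-1, held 3 intervals of 22, 19 and 16 tags, with ratios of 12.8, 11.05 and 9.30. The intervals in RMRP, RN7SK, VTRNA1-2 and RPPH1 were all taller than those in PARP4 and SRSF2 and all had lower ratios.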

How the data were processed

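HITS-CLIP tags of 2 replicates were pooled by the authors into 1 peak list, per the file's name, which also names unique tags, significant peaks and a bound that appears relative to peak height; whether unique means mapped to 1 place or freed of duplicates is not stated. The submitters' processing notes name BWA 0.7.17, cutadapt 2.3 and hg38, per the labels. Peak caller, threshold and the calculation of the expected height are not given in the sources used here. In the deposited list the signal is a peak's height in pooled tags, and a text field adds a gene number, the expected height and a p-value.

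Rows of the same position and strand were counted once, keeping of several expected heights the greatest. Spans came from RefSeq (GRCh38.p14), which gives no strand or exons here. No test was made, because there was 1 group. Poisson intervals (95%) cover counting error only, with PH0 taken as fixed. All 6 members and the listed particle proteins were named by rule; they, the lists and the alternatives were chosen with earlier results of these data known, and other names after their values were seen. Sequences of the 6 RNAs are not shown here. The assignment was tested by the same midpoint rule on simulated data without overlapping genes or repeated copies. That checks the code only, not which copy a tag came from. Scripts ran under Python 3.11.15 with scipy 1.17.1, pandas 2.3.3, matplotlib 3.10.9 and numpy 2.4.6.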

Additional observations from a re-analysis of the deposited data

How the results depend on the processing

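Of 56 alternative values, 49 did not move. The number of intervals at the 6 RNAs, their heights and the part of each RNA covered were the same with any overlap of 1 nt, with the interval wholly inside the gene, among intervals above the median height and after merging within 50 nt. These settings could not have moved them. Each interval lay wholly inside its RNA, at least 59924 nt from the next and above the median height of 7 tags. As each interval had 1 row, the ratio from rows listed under the RNA gene itself was fixed as well. With 1 tag added to PH0 the ratios stayed within their counting intervals and were counted as not moved. RN7SK (5.69) and RPPH1 (5.44) still changed places in the order by ratio, against 5.93 and 6.48 without the added tag. The 7 values that moved were ranks by height, which depend on the background by construction. Among intervals in short noncoding RNA genes, RMRP ranked 2, RN7SK 3, VTRNA1-2 4 and RPPH1 12. Without rRNA and mitochondrial intervals, RN7SK ranked 4, VTRNA1-2 10 and RPPH1 40. Ranking every row by ratio, an alternative chosen after seeing the data, moved no rank. The rows added by it had ratios equal to or above those of the rows kept. It thus had little room to move ranks counted from the lowest ratio. No paired analysis was possible because the list pools both replicates of 1 group, and leaving out a replicate was not possible for the same reason. Depth per library was unknown.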

Other observations

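Among the 8 short RNA intervals listed under their own gene number, the midpoint lay beyond the middle of the RNA in 4 of 4 RNAs described here and in 0 of 4 others. It lay at 55.9% to 81.0% of the length in RPPH1, VTRNA1-2, RMRP and RN7SK. It lay at 42.6% in SNORD3A, 40% in RNU12, 38.5% in RNU6ATAC and 24.8% in RNU11. This was noticed after the values were seen, was not tested, and takes the direction of each RNA from the strand of its interval. The gene number of an interval bears on its expected height, not on its position. Midpoints of the other 45 of the 53 short RNA intervals are not given, so the split describes these 8 only.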
